A study of Mus musculus with 12 samples.

Results

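The 6 genes described here encode transcription factors and cofactors of neurons in the ventromedial nucleus (VMN) of the mouse hypothalamus: Nr5a1, Fezf1, Sox14, Nkx2-1, Vgll2 and Lmo3. They were taken by name, with earlier results of these data known, so shares of all genes set beside them are a description. All 6 were found among the 46517 Ensembl identifiers of the deposited count files. The libraries came from translating ribosome affinity purification (TRAP), in which ribosomes carrying a GFP-tagged protein are pulled down from chosen cells with the RNA they hold. Each of 6 pools of 6 animals gave an output library of pulled-down RNA, labelled as coming from SF1 cells, and an input library of the dissected tissue. Counts of 3 libraries were available for each of DN output, CTRL output, DN input and CTRL input.

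All mice ate regular chow, were fasted overnight and, per the labels, received an AAV (adeno-associated virus) for GFP-L10, a ribosomal fusion protein. DN mice also received an AAV for a dominant-negative form of the energy-sensing kinase AMPK in the VMN. CTRL mice are labelled as lacking this mutant, although the treatment text of their libraries names its virus too, and the mutant label was followed. The labels do not state whether CTRL mice received another virus in its place, so the mutant and a second virus cannot be told apart. They also do not state what restricts GFP-L10 to SF1 cells, or the strain, sex and age of the mice. The question addressed was whether the pull-down enriched these 6 transcripts, and whether their levels differed when AMPK was blocked. RNA counts do not show whether AMPK was blocked.

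The VMN is a nucleus of mostly glutamatergic neurons that takes part in energy balance, glucose counter-regulation and social behaviours. Nr5a1 encodes SF1 (steroidogenic factor 1), a nuclear receptor that VMN neurons need to form and to settle in place, and which in the brain is largely restricted to this nucleus. It is also made in gonadotrope cells of the pituitary. Fezf1 encodes a zinc finger repressor, Sox14 an HMG-box repressor and Nkx2-1 a homeodomain factor needed for the ventral hypothalamus as a whole. Vgll2 and Lmo3 do not bind DNA themselves: Vgll2 is a vestigial-like cofactor of TEAD proteins, and Lmo3 is a LIM-only protein that joins other factors through LDB adaptors.

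On GRCm38 with GENCODE M21 gene models, Nr5a1 (ENSMUSG00000026751) spans chr2:38692656-38714542 and Fezf1 (ENSMUSG00000029697) chr6:23245044-23248362. Sox14 (ENSMUSG00000053747) spans chr9:99874106-99876170 and Nkx2-1 (ENSMUSG00000001496) chr12:56531958-56536908. Lmo3 (ENSMUSG00000030226) spans chr6:138362918-138581968, and these 5 genes lie on the minus strand. Vgll2 (ENSMUSG00000049641) spans chr10:52022502-52028471 on the plus strand. All are protein-coding, with 1650 bases of annotated exon in Vgll2, 2065 in Sox14, 2409 in Fezf1, 2842 in Nkx2-1, 4241 in Nr5a1 and 5135 in Lmo3.

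RefSeq promoter entries (GRCm38.p6) were held for 5 of the 6 genes, all except Nr5a1. The 250 bases before the start are shown for Fezf1, the gene whose enrichment held under every alternative below, and for Nkx2-1, the 1 gene with a match to a motif searched. The motifs were CAAGGNCA for NR5A receptors, CAAGTG for NKX2 factors, AACAAT for SOX factors and GGAATG for TEAD factors, each on both strands, and capitals mark a match.
Fezf1, chr6:23248265-23248514, minus strand: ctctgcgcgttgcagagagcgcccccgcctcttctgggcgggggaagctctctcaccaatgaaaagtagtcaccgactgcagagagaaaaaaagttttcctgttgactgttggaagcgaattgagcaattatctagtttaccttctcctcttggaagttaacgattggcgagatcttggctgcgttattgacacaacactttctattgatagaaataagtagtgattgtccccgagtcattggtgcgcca
Nkx2-1, chr12:56536909-56537158, minus strand: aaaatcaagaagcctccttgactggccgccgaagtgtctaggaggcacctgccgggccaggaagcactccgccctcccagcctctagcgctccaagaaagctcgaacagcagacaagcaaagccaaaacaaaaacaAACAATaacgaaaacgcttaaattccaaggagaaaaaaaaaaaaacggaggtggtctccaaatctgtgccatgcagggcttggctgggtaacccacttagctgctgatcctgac
The RefSeq start of Fezf1 lies inside the GENCODE span given above, so 98 bases of its window fall within that span, against 0 for the other 4 windows. The match in Nkx2-1 was AACAAT, 114 to 109 bases before the start, and with a single match no motifs overlapped. Among 32851 RefSeq promoter windows of 250 bases, 5.53% held the NR5A motif, 11.6% the NKX2 motif, 9.42% the SOX motif and 12.6% the TEAD motif. The windows of Fezf1, Sox14, Vgll2 and Lmo3 held none of the 4 sets of letters. G and C made up 47.6% of the window of Fezf1, 50.8% of that of Nkx2-1, 64.0% of that of Vgll2 and 65.6% of that of Sox14.

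Gene counts per library ranged from 34.6 to 43.0 M in outputs and from 37.2 to 55.5 M in inputs. Genes of the mitochondrial chromosome took 17.9 to 26.1% of them in outputs and 74.9 to 79.7% in inputs, so nuclear genes had 26.2 to 32.1 M counts in outputs and 8.54 to 11.3 M in inputs. At these depths 3 counts in a library corresponded to 0.0412 to 0.0493 normalized CPM (counts scaled to a common library total with TMM factors) in outputs and 0.104 to 0.134 in inputs. The summed level of 12 astrocyte markers was 1100 to 1270 CPM in DN outputs, 1630 to 1870 in CTRL outputs, 3160 to 3470 in DN inputs and 3070 to 3750 in CTRL inputs. Of 10 pituitary markers, Gh, Prl, Lhb, Pou1f1 and Pitx1 had no count in any of the 12 libraries. The sum of the 10 was 0.162 to 2.43 CPM in DN outputs, 0.742 to 15.9 in CTRL outputs, 1.78 to 6.12 in DN inputs and 8.16 to 11.6 in CTRL inputs. The gene of the labelled cells, Nr5a1, had counts in all 12 libraries.

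Levels of the 6 genes in the pulled-down RNA differed widely when expressed per kilobase of annotated exon, the scale on which genes can be compared. In DN outputs the order of mean levels was Fezf1 at 96.8 ± 13.4 CPM per kilobase (SD, n = 3 here and below), Lmo3 at 65.1 ± 15.4, Nkx2-1 at 19.4 ± 1.05, Nr5a1 at 5.28 ± 2.45, Sox14 at 2.64 ± 0.782 and Vgll2 at 0.27 ± 0.371. Neighbours in this order had ranges that did not overlap, except Nr5a1 and Sox14. In CTRL outputs the order was the same, with Fezf1 at 69.3 ± 3.47 CPM per kilobase, Lmo3 at 56.2 ± 5.26, Nkx2-1 at 14.2 ± 1.29, Nr5a1 at 5.35 ± 2.88, Sox14 at 1.94 ± 0.753 and Vgll2 at 0.176 ± 0.19, and no neighbours overlapped. The gene that names the cells was therefore only the fourth of the 6 in its own pulled-down RNA.

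In the tissue the order differed at the top. In DN inputs Lmo3 led at 24.7 ± 1.38 CPM per kilobase, ahead of Fezf1 at 9.74 ± 4.31 and Nkx2-1 at 7.51 ± 1.21, whose ranges overlapped. Nr5a1 followed at 1.42 ± 0.272 CPM per kilobase, and Sox14 at 0.098 ± 0.0397 and Vgll2 at 0.0242 ± 0.042 overlapped. In CTRL inputs Lmo3 was at 20.7 ± 4.9 CPM per kilobase, Fezf1 at 7.17 ± 1.47 and Nkx2-1 at 5.33 ± 1.0, with the last 2 overlapping. Sox14 at 0.706 ± 0.425 and Nr5a1 at 0.488 ± 0.199 overlapped as well, and Vgll2 was at 0.00723 ± 0.0125 CPM per kilobase. Lmo3 is expressed in many forebrain regions, and it was the member with the highest tissue level in both conditions.

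**Figure D1:**
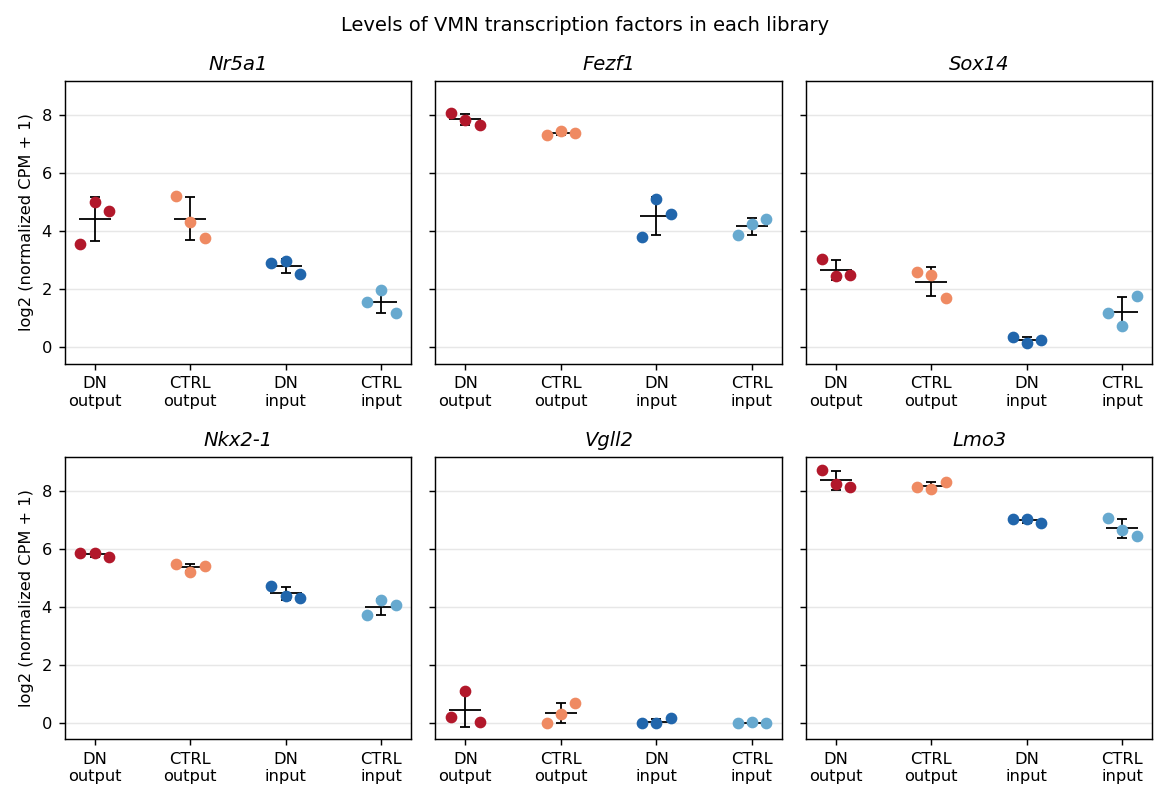
Levels of the 6 genes in the 12 libraries, as log2 of normalized CPM plus 1, by group. Points are libraries, and the horizontal line with whiskers is the mean and SD of the 3 log2 values. Fezf1, Nr5a1, Nkx2-1 and Lmo3 lie higher in outputs than in inputs of the same condition, and Vgll2 stays at or below 1.15 CPM in all 12 libraries.

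The first comparison was of output with input RNA, which asks whether the pull-down enriched the transcripts. In DN pools 4 of the 6 genes (Fezf1, Lmo3, Nkx2-1 and Sox14) were higher in outputs at an adjusted p under 0.05 in edgeR's quasi-likelihood test, and so were 1.84% of the 13041 genes tested (3.38% in either direction). In CTRL pools 4 of the 6 (Fezf1, Lmo3, Nr5a1 and Nkx2-1) were higher, against 1.78% of 13456 genes (3.2% in either direction). Sox14 passed the filter on low counts in DN through the outputs alone, so its call there is given as a description; apart from it, 3 of the 6 were called in DN. None of the 6 was lower in outputs, where 1.54% of genes in DN and 1.42% in CTRL were. Vgll2 did not pass the filter on low counts in either condition and was not tested. Every output lay above every input for 5 of the 6 in DN, Sox14 included, and 4 of the 6 in CTRL. Over all genes tested, outputs lay wholly above inputs for 11.6% in DN and 12% in CTRL, wholly below them for 10.9% in DN and 11.2% in CTRL, and apart in either direction for 22.5% in DN and 23.2% in CTRL. In bulk libraries such as these, fewer cells of a type and less RNA per cell cannot be told apart.

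Nr5a1 had 10.9, 31.1 and 25.1 CPM in DN outputs, against 6.5, 6.88 and 4.72 CPM in DN inputs. All 3 outputs lay above all 3 inputs, but the output of DN pool 1 was close to them. The log2 fold change was 1.88 ± 0.55 (SE), which did not pass (adjusted p = 0.0946, higher in 3 of 3 pools), although it did by DESeq2 (adjusted p = 0.0083) and with no filter on low counts (adjusted p = 0.0388). In CTRL outputs Nr5a1 had 36.2, 19.2 and 12.5 CPM, against 1.95, 2.97 and 1.29 CPM in CTRL inputs. These groups were far apart, with a log2 fold change of 3.44 ± 0.55 (adjusted p = 0.00751, higher in 3 of 3 pools). The call ended without CTRL pool 1 (adjusted p = 0.165, log2 fold change 2.88) and without CTRL pool 2 (0.108, at 3.90). Across the settings tried, this p lay between 0.0083 and 0.422 in DN and between 5.21e-09 and 0.165 in CTRL. Nr5a1 levels in DN and CTRL outputs overlapped, whereas those in DN and CTRL inputs did not.

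Fezf1, which represses alternative neuronal programmes during forebrain development, was enriched in every pool. It had 267, 229 and 203 CPM in DN outputs, against 13.1, 33.9 and 23.3 CPM in DN inputs. In CTRL outputs it had 158, 175 and 168 CPM, against 13.5, 17.9 and 20.4 CPM in CTRL inputs. The lowest output was several times the highest input in both conditions, with log2 fold changes of 3.30 ± 0.32 in DN (adjusted p = 0.00013) and 3.26 ± 0.21 in CTRL (adjusted p = 1.31e-05). Of the 6 genes it was the 1 whose call held in both conditions under every alternative run, leaving out each pool included, with adjusted p of at most 0.00945 in DN and 0.00415 in CTRL.

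Lmo3 had 425, 298 and 280 CPM in DN outputs, against 131, 130 and 118 CPM in DN inputs. In CTRL outputs it had 278, 269 and 319 CPM, against 134, 98.5 and 86.0 CPM in CTRL inputs. Outputs were above inputs by a similar margin in each condition, with log2 fold changes of 1.39 ± 0.19 in DN (adjusted p = 0.00151) and 1.43 ± 0.19 in CTRL (adjusted p = 0.00245), and higher in 3 of 3 pools of each. The DN call held under every alternative, at an adjusted p of at most 0.0283, whereas the CTRL call ended without CTRL pool 2 (0.105). Nkx2-1 had 56.9, 57.0 and 51.8 CPM in DN outputs, against 25.3, 19.8 and 18.9 CPM in DN inputs. In CTRL outputs it had 43.4, 36.2 and 41.3 CPM, against 12.1, 17.8 and 15.6 CPM in CTRL inputs. The groups did not overlap, and the log2 fold change was 1.36 ± 0.30 in DN (adjusted p = 0.0311) and 1.40 ± 0.29 in CTRL (adjusted p = 0.0243), higher in 3 of 3 pools of each.

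The calls of Nkx2-1 rested on having all 3 pools. The adjusted p was 0.132, 0.171 and 0.202 without DN pools 1, 2 and 3, and 0.217, 0.165 and 0.0999 without CTRL pools 1, 2 and 3, with log2 fold changes from 1.29 to 1.48 in DN and from 1.20 to 1.61 in CTRL. With the pool as a block, the DN call of Nkx2-1 ended as well (adjusted p = 0.0501). Nkx2-1 is also made by other cells of the ventral hypothalamus, among them tanycytes, which line the third ventricle. The summed level of 12 markers of tanycytes and ependyma was 35.8 to 72.8 CPM in DN outputs and 36.7 to 82.0 in CTRL outputs. In inputs it was 98.7 to 132 CPM in DN and 101 to 113 in CTRL. Any part of these cells in the values of Nkx2-1 was not tested.

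Sox14 had 7.32, 4.47 and 4.59 CPM in DN outputs, against 0.286, 0.121 and 0.2 CPM in DN inputs. The 3 DN inputs together held 16 counts, 3 of them in pool 2, and no input reached the minimum count of 10. Its log2 fold change in DN was 4.72 ± 1.13 (adjusted p = 0.0413), and the call ended without DN pool 1, 2 or 3 (0.222, 0.179 and 0.206) and with the pool as a block (0.076). In CTRL outputs it had 5.12, 4.67 and 2.23 CPM, against 1.29, 0.68 and 2.41 CPM in CTRL inputs. CTRL outputs and inputs overlapped, since the output of pool 3 was below its own input, and the difference did not pass (1.44 ± 0.85, adjusted p = 0.446).

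Vgll2 was close to the limit of detection. It had 0.162, 1.15 and 0.0275 CPM in DN outputs, against 0, 0 and 0.12 CPM in DN inputs, and 0, 0.249 and 0.624 CPM in CTRL outputs, against 0, 0.0358 and 0 CPM in CTRL inputs. Summed over libraries these were 90 counts in DN outputs against 3 in DN inputs, and 54 in CTRL outputs against 1 in CTRL inputs. The ratio of the summed, scaled counts was 11.2 in DN (exact 95% interval 3.72 to 55.4) and 21.9 in CTRL (3.76 to 880.0). These intervals cover counting error only and not the spread between pools, which was large: 77 of the 90 DN output counts came from pool 2.

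**Figure D2:**
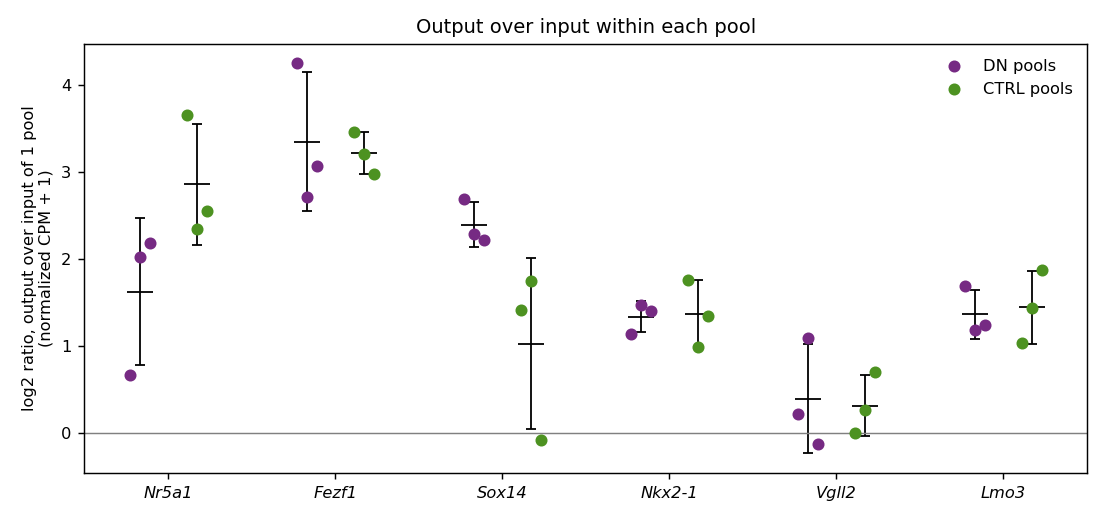
Log2 ratio of output to input within each pool for the 6 genes, from normalized CPM plus 1, with DN pools left and CTRL pools right of each gene. Points are pools, and the line with whiskers is their mean and SD (n = 3). All pools lie above 0 for Nr5a1, Fezf1, Nkx2-1 and Lmo3, while 1 CTRL pool of Sox14 lies at -0.08. For Vgll2, 1 DN pool lies at -0.12 and 1 CTRL pool at 0.

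Ratios within a pool were taken as log2 of output over input with 1 CPM added to each. Fezf1 was at 4.25, 2.72 and 3.07 in DN pools and 3.46, 3.21 and 2.98 in CTRL pools. Nkx2-1 was at 1.14, 1.48 and 1.41 in DN and 1.76, 0.99 and 1.35 in CTRL, and Lmo3 at 1.69, 1.19 and 1.24 in DN and 1.04, 1.44 and 1.88 in CTRL. For these 3 genes the DN and CTRL pools overlapped. Nr5a1 was at 0.67, 2.03 and 2.19 in DN pools and 3.66, 2.35 and 2.56 in CTRL pools, so each DN pool lay below each CTRL pool. Sox14 showed the opposite order, at 2.69, 2.29 and 2.22 in DN and 1.42, 1.75 and -0.08 in CTRL. DN and CTRL pool ratios lay apart in this way for 9.95% of 15011 genes, with DN higher for 5.05% and lower for 4.9%. Vgll2 was at 0.22, 1.1 and -0.12 in DN pools and 0, 0.27 and 0.7 in CTRL pools, which overlapped. The 1 CPM added exceeds the level of Sox14 in each DN input and of Vgll2 in every input, which pulls these ratios towards 0.

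The difference between the conditions in enrichment was tested as an interaction over all 12 libraries, and edgeR called none of the 6 genes and none (0%) of the 15011 genes tested. Sox14 was at 3.27 ± 1.23 on the log2 scale (DN minus CTRL, adjusted p = 0.738) and was the 1 member with an unadjusted p under 0.05 (0.0164), as were 6.22% of all genes tested. Its value rests on the 16 counts of the DN inputs, and it passed the filter through the other groups. Nr5a1 was at -1.56 ± 0.74 (adjusted p = 0.799). Fezf1 was at 0.04 with a 95% interval from -0.76 to 0.84, Nkx2-1 at -0.04 (-0.83 to 0.75) and Lmo3 at -0.04 (-0.61 to 0.54), and Vgll2 at -0.88 had an interval from -8.04 to 6.27. DESeq2 called 0 of the 6 and 99 genes in all. Enrichment of Nr5a1 and Sox14 was thus not shown to differ between DN and CTRL, and the intervals of Fezf1, Nkx2-1 and Lmo3 leave out differences of more than 0.84.

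Other genes of VMN neurons and of neighbouring cells, also chosen with earlier results of these data known, show where the 6 stood. Of 10 other transcriptional regulators reported in VMN neurons, 2 were called higher in DN outputs and 3 in CTRL outputs, and none was called lower. Over all genes tested, 1.84% were called higher in DN and 1.78% in CTRL. The median log2 fold change of the 10 was 0.89 in DN (0 over all genes tested) and 0.83 in CTRL (0.02 over all genes). It was not uniform: 6 of the 10 were above 0 in DN and 8 in CTRL. Nr2f2, a nuclear receptor, rose in both (2.08 ± 0.29 in DN, adjusted p = 0.00209, and 1.43 ± 0.23 in CTRL, adjusted p = 0.00818). Pgr, the progesterone receptor, was at 0.93 ± 0.27 in DN (adjusted p = 0.0883) and 1.07 ± 0.30 in CTRL (adjusted p = 0.0849). It passed by DESeq2 (0.0187 in DN and 0.00946 in CTRL), with no filter (0.0416 in DN and 0.00326 in CTRL) and, in CTRL, with the pool as a block (0.0396). Without CTRL pool 1 or 2 the CTRL call of Nr2f2 ended (0.14 and 0.13), whereas Nr2f2 in DN passed without each pool.

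Of 21 other genes of VMN neurons, 9 were higher and 2 lower among the 20 tested in DN, and 9 were higher and 2 lower among the 21 tested in CTRL, with medians of 1.15 in DN and 0.99 in CTRL. Among all genes tested, 1.84% were called higher and 1.54% lower in DN, and 1.78% higher and 1.42% lower in CTRL. Slc17a6, the vesicular glutamate transporter of these neurons, rose by 1.43 ± 0.17 in DN (adjusted p = 0.000555) and 1.20 ± 0.14 in CTRL (adjusted p = 0.000807), and Gpr149, an orphan receptor, by 2.70 ± 0.42 in DN (adjusted p = 0.00412) and 1.80 ± 0.27 in CTRL (adjusted p = 0.00603). The lower members were Sst, the somatostatin precursor that marks many GABA neurons too (-1.27 ± 0.27 in DN, adjusted p = 0.026, and -1.60 ± 0.22 in CTRL, adjusted p = 0.00367), and Dlk1, a Notch-family ligand (-0.66 ± 0.15 in DN, adjusted p = 0.0296, and -0.61 ± 0.15 in CTRL, adjusted p = 0.0461). Calls of Sst and Dlk1 ended without any DN pool (0.107 to 0.196). In CTRL the call of Sst ended without pool 1 or 2 (0.0535 and 0.121), that of Dlk1 without any pool (0.145 to 0.372), that of Slc17a6 without pool 1 (0.0516) and that of Gpr149 without pool 1 or 2 (0.121 and 0.0914). The DN call of Gpr149 ended without pool 2 or 3 (0.0685 and 0.0606).

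Most transcription factors of other hypothalamic cells pointed the other way. Of 25 such genes 19 were tested in each condition: 1 was called lower in DN outputs, 3 in CTRL outputs, and none was called higher. Over all genes tested, 1.54% were called lower in DN and 1.42% in CTRL. The medians of the list were -1.97 in DN and -1.36 in CTRL, and 2 of the 19 were above 0 in DN and 3 in CTRL. Otp, a homeodomain factor of paraventricular and other peptide neurons, fell in both (-2.81 ± 0.59 in DN, adjusted p = 0.0241, and -2.50 ± 0.46 in CTRL, adjusted p = 0.0144). Lhx2 (-3.49 ± 0.83, adjusted p = 0.0461) and Pou3f2 (-2.09 ± 0.50, adjusted p = 0.0477) fell in CTRL. In DN neither passed, with Lhx2 at -0.42 ± 0.90 (adjusted p = 0.878) and Pou3f2 at -1.97 ± 0.84 (adjusted p = 0.279). Lhx1, a LIM homeodomain factor, was at -3.70 ± 0.94 in DN (adjusted p = 0.0532). In CTRL it was at -2.24 ± 0.85 (adjusted p = 0.204, and 0.0266 to 0.574 across the settings tried). The Otp calls ended without DN pool 1 or 3 (0.238 and 0.183), in the block fit of DN (0.0614) and without CTRL pool 1 or 2 (0.146 and 0.197). Those of Lhx2 (0.123 to 0.35) and Pou3f2 (0.148 to 0.382) ended without any CTRL pool, and that of Pou3f2 also with the pool as a block (0.0709) and in 1 fit of all 12 libraries (0.162). Lhx1 passed in DN by DESeq2 (0.000206), with no filter (0.00632) and in the fit of 12 libraries (0.0387).

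**Figure D3:**
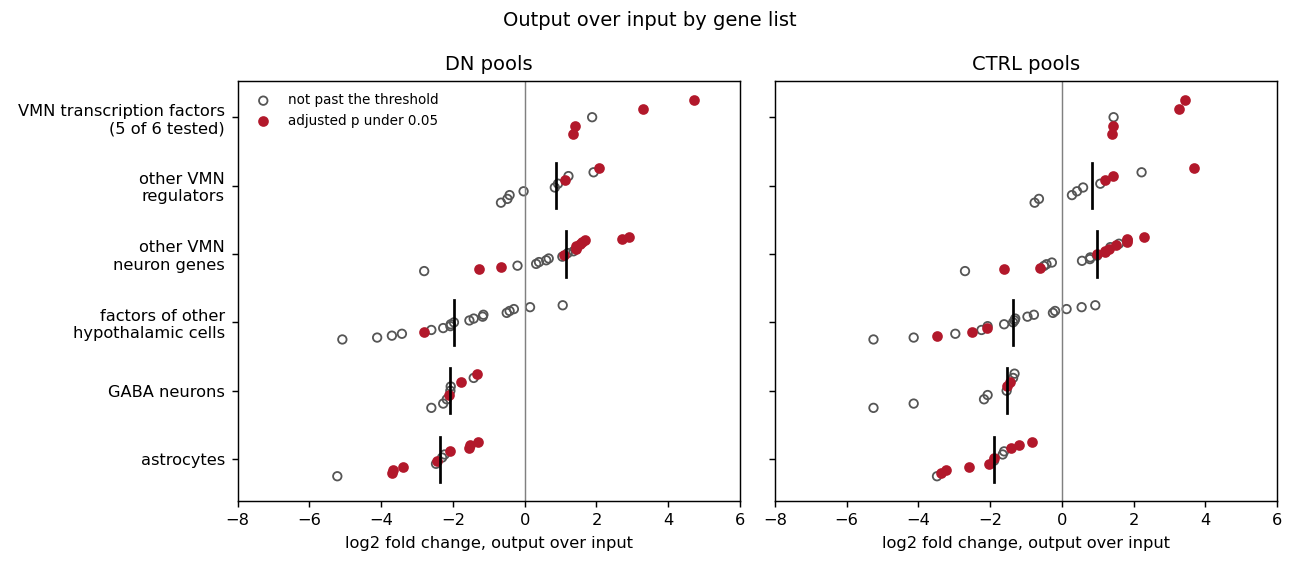
Log2 fold change of output over input for the genes of 6 lists, in DN pools (left) and CTRL pools (right). Each point is a gene, filled where its adjusted p was under 0.05, and the vertical bar is the median of a list (not drawn for the 6 genes, of which 5 were tested). The tested VMN factors all lie above 0, and most factors of other hypothalamic cells, and all tested genes of GABA neurons and astrocytes, lie below 0. Sox14 passed the filter on low counts in DN through the outputs alone, so its point there is a description.

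Relatives and partners of the 6 proteins were examined as well. Of 15 family relatives, such as Nr5a2, Fezf2 and Sox1, 12 were tested in DN and 11 in CTRL, and none passed in either direction (medians -0.82 in DN and -0.14 in CTRL). Among all genes tested, 3.38% passed in DN and 3.2% in CTRL in either direction, so counts of 0 or 1 in such short lists say little. Of the relatives tested, 5 of 12 were above 0 in DN and 5 of 11 in CTRL. Lmo4, a LIM-only relative of Lmo3, came closest in CTRL (1.20 ± 0.29, adjusted p = 0.0512). In DN Lmo4 was at 0.38 (adjusted p = 0.611, and at least 0.454 across the settings tried). Sox1, a relative of Sox14, was at 0.97 ± 0.31 in DN (adjusted p = 0.13) and 0.88 ± 0.31 in CTRL (adjusted p = 0.17). Nr5a2 and Nkx2-4 pointed the other way in DN, at -4.27 (adjusted p = 0.168) and -1.72 (adjusted p = 0.313). In CTRL Nr5a2 was at -1.57 (adjusted p = 0.584) and Nkx2-4 at -1.08 (adjusted p = 0.473). In CTRL Lmo4 passed by DESeq2 (0.00212), with no filter (0.00171), with the pool as a block (0.0144) and in 1 fit of all 12 libraries (0.0392). Sox1 passed by DESeq2 (0.0457 in DN and 0.0493 in CTRL) and with no filter (0.0242 in DN and 0.0202 in CTRL). Of 17 partner proteins 13 were tested in DN and 14 in CTRL (medians 0.22 in DN and 0.12 in CTRL), and the 1 that passed in each condition was Ldb2, an adaptor that binds LIM-only proteins. Ldb2 averaged 91.4 ± 15.3 CPM in DN outputs and 40.0 ± 5.83 in DN inputs (1.18 ± 0.25, adjusted p = 0.026), and 88.5 ± 2.34 CPM in CTRL outputs and 36.0 ± 4.1 in CTRL inputs (1.29 ± 0.19, adjusted p = 0.00573). Its call ended without any DN pool (0.0833 to 0.196) and without CTRL pool 1 or 2 (0.112 and 0.12). Tead1, a TEAD partner of Vgll2, was at 0.32 ± 0.31 in DN (adjusted p = 0.693) and 0.33 ± 0.20 in CTRL (adjusted p = 0.472) and did not pass.

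Genes whose levels varied most like those of each member were found by the root mean square difference between log2 levels centred on their mean over the 12 libraries, among protein-coding genes with a mean of at least 5 CPM. For Nr5a1 the second and the third of 7714 genes in this order were Oxtr (difference 0.57), the oxytocin receptor, and Rpl15 (0.6), a ribosomal protein gene. Oxtr averaged 45.5 CPM in DN outputs, 30.8 in CTRL outputs, 13.2 in DN inputs and 9.51 in CTRL inputs. For Fezf1 the nearest genes were Gtf2i (0.41), Nptx2 (0.65) and Nkd2 (0.74), and for Sox14 Apc2 (0.34), Nr2f2 (0.39) and Fam199x (0.44). For Nkx2-1 they were Slc17a6 (0.19), Kcnq3 (0.21) and Nefl (0.22), and for Lmo3 Prlr (0.18), Calb1 (0.18) and Camsap2 (0.19). The members' own root mean square variation was 1.68 for Fezf1, 1.29 for Nr5a1, 0.99 for Sox14, 0.74 for Lmo3 and 0.73 for Nkx2-1. Vgll2 varied by 0.33 on this scale and its nearest gene, Med1, differed from it by 0.2, so its list holds genes with nearly constant levels. The libraries share pools and the step from input to output, and the differences are a description.

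The next comparison, DN with CTRL outputs, asks whether the pulled-down RNA differed when AMPK was blocked. In edgeR 0 of the 6 genes passed, as did 0% of the 13333 genes tested, and 1 of the 6 (Fezf1) had an unadjusted p under 0.05, against 5.41% of all genes. DESeq2 called 0 of the 6 and 58 genes in all. Fezf1 averaged 233 ± 32.2 CPM in DN outputs and 167 ± 8.37 in CTRL outputs, and the lowest DN output lay above the highest CTRL output, at a log2 fold change of 0.48 ± 0.16 (95% interval 0.13 to 0.83, unadjusted p = 0.0123, adjusted p = 0.911). Nkx2-1 averaged 55.2 ± 2.97 CPM in DN outputs and 40.3 ± 3.66 in CTRL outputs, also without overlap, at 0.45 ± 0.24 (interval -0.07 to 0.98, adjusted p = 0.948). DN and CTRL outputs lay apart for 11% of all genes tested, with DN higher for 5.17% and lower for 5.87%. Lmo3 averaged 335 ± 79.2 CPM in DN outputs and 289 ± 27.0 in CTRL outputs (0.21, interval -0.18 to 0.60) and overlapped.

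The less abundant members were less precise. Nr5a1 averaged 22.4 ± 10.4 CPM in DN outputs and 22.7 ± 12.2 in CTRL outputs, at -0.02 with an interval from -1.11 to 1.06. Its direction turned without DN pool 1 (0.31), without CTRL pool 1 (0.49) and in the replicate block (0.035), so these libraries give it none. Sox14 averaged 5.46 ± 1.61 CPM in DN outputs and 4.01 ± 1.55 in CTRL outputs (0.44, interval -1.14 to 2.03). Vgll2 averaged 0.446 ± 0.611 CPM in DN outputs and 0.291 ± 0.314 in CTRL outputs (0.61, interval -3.44 to 4.65, and -1.60 without DN pool 2). Other VMN genes were positive at 17 of 21 (median 0.33, against 0.01 over all genes) and other VMN regulators at 7 of 10 (median 0.23), and none passed. The summed level of the 21 genes was 2130 to 2520 CPM in DN outputs and 1770 to 2100 in CTRL outputs, and the ranges did not overlap. The astrocyte sum was lower in each DN output than in each CTRL output (ranges above), but most of it was Slc1a2, a glutamate transporter gene, at 918, 852 and 975 CPM in DN outputs and 1390, 1530 and 1320 in CTRL outputs. The other 11 astrocyte markers, a split chosen after the values were seen, summed to 247 to 332 CPM in DN outputs and 307 to 343 in CTRL outputs, which overlapped. Whether the makeup of the outputs differed, and its part in the values of Fezf1 and Nkx2-1, was not tested.

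**Figure D4:**
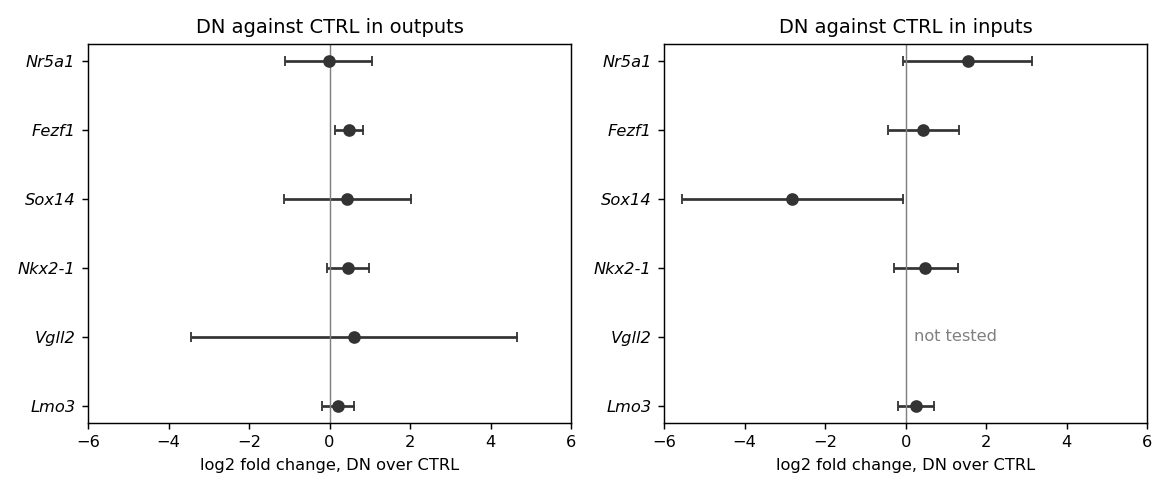
Log2 fold change of DN over CTRL with its 95% interval for the 6 genes, in outputs (left) and inputs (right), from fits of 6 libraries each. Positive values are higher in DN, and Vgll2 was not tested in inputs. None passed after adjustment over all genes, and the intervals are widest for Vgll2 and Sox14.

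In the tissue before the pull-down, 0 of the 5 members tested passed between DN and CTRL inputs in edgeR, against 0.00756% of the 13221 genes tested, and 1 of them (Sox14) had an unadjusted p under 0.05, against 4.46% of all genes. Sox14 passed the filter here through the CTRL inputs alone, where it is higher, so its values are a description. DESeq2 called 0 of the 5 and 2 genes in all. Nr5a1 averaged 6.03 ± 1.15 CPM in DN inputs and 2.07 ± 0.846 in CTRL inputs, with each DN library above each CTRL library, at a log2 fold change of 1.54 ± 0.73 (95% interval -0.06 to 3.14, adjusted p = 0.997). It rested on 470 counts in DN and 168 in CTRL over 3 libraries each. Nkx2-1 was also apart, at 21.3 ± 3.43 CPM in DN and 15.2 ± 2.85 in CTRL inputs (0.49, interval -0.30 to 1.29). Sox14 went the other way, at 0.202 ± 0.0821 CPM in DN and 1.46 ± 0.877 in CTRL inputs (-2.82 ± 1.26, interval -5.56 to -0.08, unadjusted p = 0.043, adjusted p = 0.997), on 16 counts in DN against 110 in CTRL. DN and CTRL inputs lay apart for 10.5% of all genes tested, with DN higher for 5.17% and lower for 5.37%. Fezf1 averaged 23.5 ± 10.4 CPM in DN inputs and 17.3 ± 3.53 in CTRL inputs (0.44, interval -0.45 to 1.33), and overlapped. Lmo3 averaged 127 ± 7.08 CPM in DN inputs and 106 ± 25.2 in CTRL inputs (0.25, interval -0.20 to 0.70), and overlapped too. The input levels of Nr5a1 and Sox14 enter their output to input ratios above, in which DN and CTRL pools lay apart.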

How the data were processed

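Counts of reads per Ensembl gene were deposited by the authors, 1 file per library, with no normalization. HTSeq 0.6.1, STAR 2.4.2a, cutadapt 1.3 and build GRCm38 are named per the submitters' processing notes. The annotation release and the strand setting are not stated there. Per the labels' protocols, RNA was amplified with a NuGEN Ovation system, which can alter relative levels. Reads without a gene, 16.1 to 26.1% of each file, were left out. GENCODE M21 held 98.9% of the identifiers. The members and lists were chosen with earlier results of these data known, and p-values were adjusted over all genes tested.

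Genes were tested with edgeR 4.0.16 in R 4.3.3 (quasi-likelihood, two-sided, TMM, filterByExpr with minimum count 10 and minimum total 15), with Benjamini-Hochberg adjustment at 0.05. Each comparison was fitted on its 6 libraries, and the interaction on all 12. All members were described, with up to 4 genes of each list by smallest unadjusted p. Dlk1, Sst in DN and the overlapping RNAs fall outside that rule and were chosen after their values were seen. The 3 genes most like a member were taken by the root mean square difference. Some genes that these rules select are not reported here. Levels used TMM factors over 12 libraries. DESeq2 1.42.0 was an alternative. The fit was tested on simulated data. Counting intervals and the 3-count floor cover counting error only, since no molecular identifiers are named.

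Inputs and outputs of 1 number come from the same pool of animals; their deviations from group means correlated across genes at 0.004, -0.002 and 0.015 in DN pools and 0.096, 0.035 and 0.156 in CTRL pools. DN and CTRL pools share only a number. Separate pools are the replicates.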

Additional observations from a re-analysis of the deposited data

How the results depend on the processing

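Directions of the 5 members tested in output against input held in both conditions under every alternative. That of Sox14 in DN is a description only, since it passed the filter on low counts there through the outputs alone. With all genes counted, 441 passed in DN and 431 in CTRL. In DN these became 1124 by DESeq2, 976 with no filter, 673 in 1 fit of all 12 libraries and 115 to 148 without 1 pool, and in CTRL 1172 by DESeq2, 903 with no filter and 45 to 214 without 1 pool. Members called were 4 in each condition, in DN with Sox14, whose call is a description only. In DN they became 2 with the pool as a replicate block and 2 without any 1 pool, and in CTRL 1 to 3 without 1 pool. The block changed no other call of a member and left 4 members called in CTRL. By DESeq2 and with no filter, Nr5a1 was called in DN as well. Between DN and CTRL outputs, DESeq2 called 58 genes against 0. Between inputs 1 gene passed, against 2 by DESeq2, 39 with no filter, 0 with DESeq2 size factors, upper quartile scaling, mitochondrial genes left out, a fit of all 12 libraries or the replicate block, and 0 to 8 without 1 library. In the interaction, DESeq2 called 99 genes and the unfiltered fit 54, against 0. No member passed in these 3 comparisons under any alternative. Near 0, signs turned: Nr5a1 between outputs (0.035 in the block, and -0.33 to 0.49 without 1 library), Vgll2 between outputs (-1.6 to 1.82 without 1 library), and in the interaction, without 1 pool, Fezf1 (-0.35 to 0.42), Nkx2-1 (-0.24 to 0.16), Lmo3 (-0.27 to 0.18) and Vgll2 (-3.64 to 3.64). The causes were not tested. Leaving out mitochondrial genes multiplied CPM by 2.39 to 2.44 in all libraries alike. With 0.5 CPM added in place of 1, the mean pool ratio of Sox14 in DN moved to 3.06, against 2.4. Counts were few for Vgll2 and in the inputs of Sox14.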

Other observations

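Antisense RNAs whose annotated spans overlap those of Lmo3, Nr5a1 and Nkx2-1 gave counts of their own; they were chosen after their values were seen. A830011K09Rik lies inside Lmo3 on the opposite strand (chr6:138423105-138429592) and shares no exon base with it. It had 4.74, 19.2 and 7.82 CPM in DN outputs, against 0.607, 0.81 and 8.96 CPM in DN inputs, which overlapped (log2 fold change 1.60 ± 1.04, adjusted p = 0.521). In CTRL outputs it had 12.6, 19.6 and 10.9 CPM, against 1.91, 3.44 and 2.81 CPM in CTRL inputs, without overlap (2.39 ± 0.51, adjusted p = 0.0306). The CTRL call ended without each of CTRL pools 1, 2 and 3 (0.202, 0.255 and 0.0825) and in 1 fit of all 12 libraries (0.207). Gm30332, also opposite Lmo3, had 165 counts in CTRL inputs, all in pool 2, and 0 in the other groups. B230110G15Rik, opposite the start of Lmo3, had 1 count in DN outputs, 26 in CTRL outputs and 0 in inputs. Neither passed the filter on low counts in output against input.

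Nr5a1os starts within Nr5a1 on the opposite strand (chr2:38712676-38720638) and shares no exon base with it. It had 0.0442, 1.37 and 11.4 CPM in DN outputs, against 0, 0.364 and 0.12 CPM in DN inputs, and 3.87, 0.592 and 0.378 CPM in CTRL outputs, against 0.487, 0.107 and 0 CPM in CTRL inputs. The difference was tested in CTRL, where it did not pass (2.99 ± 1.60, adjusted p = 0.393), and in DN it did not pass the filter on low counts. Among outputs the highest Nr5a1os level was in DN pool 3, whereas the highest Nr5a1 level was in CTRL pool 1. Within CTRL outputs both RNAs were highest in pool 1 and lowest in pool 3, and within DN outputs both were lowest in pool 1. Nr5a1os, Gm26973 and B230110G15Rik extend beyond the genes they overlap. Gm26973, opposite Nkx2-1, stayed at or below 0.729 CPM in all 12 libraries. The strand setting of the counting is not given in the sources used here, so reads from these RNAs and from introns of the genes they overlap cannot be told apart.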
